A study of Mus musculus with 3 samples.

Results

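The mitochondrial respiratory chain and ATP synthase, which together carry out oxidative phosphorylation, are built from subunits encoded in 2 genomes, and their transcripts were followed here in CD4+ T cells of lupus-prone mice. The members are all gene rows present in both the kidney and the spleen matrix whose symbol begins with Nduf, Uqcr, Cox4, Cox5, Cox6, Cox7, Cox8 or Atp5, together with Sdha, Sdhb, Sdhc and Sdhd and the genes beginning mt-Nd, mt-Co, mt-Cytb or mt-Atp. This gave 107 of 32285 genes, of which 94 are encoded in the nucleus and 13 in mitochondrial DNA. The rule uses symbols alone, but it was chosen with earlier results of these data known. By role, 45 nuclear members belong to complex I (7 core subunits, 30 supernumerary subunits and 8 assembly factors), 4 to complex II, 8 to complex III, 20 to complex IV and 17 to complex V. The 13 mitochondrial members comprise 7 complex I subunits, 1 complex III subunit, 3 complex IV subunits and 2 complex V subunits.

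Single-cell 5′ RNA-seq was done on CD4+ T cells that had been sorted, separately for each organ, out of the kidney and the spleen of MRL/lpr mice, a strain that develops lupus-like disease. KO mice were Ezh2 fl/fl and carried CD4-Cre/ERT2 (named iCD4-Cre Ezh2 fl/fl), so that tamoxifen activates the recombinase where the Cd4 promoter is active. WT mice were Ezh2 fl/fl without Cre. Both groups had a MRL/lpr background, with 6 backcross generations listed. Both were given tamoxifen by gavage (300 mg/kg, 3 days a week in alternate weeks) up to 24 weeks of age. Dosing began at 10 weeks in the preventative or at 14 weeks in the therapeutic design. Which mouse had which start is not given in the sources used here. Because WT mice lack the Cre, an effect of activated Cre itself cannot be told apart from deletion of Ezh2, the methyltransferase of Polycomb repressive complex 2. Kidneys were dissociated with enzymes at raised temperature and spleens were mashed without them, so organ and dissociation cannot be told apart either.

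Electrons enter the chain at complex I, from NADH, or at complex II, from succinate, pass through complex III and reach oxygen at complex IV. Complexes I, III and IV pump protons across the inner mitochondrial membrane, and complex V, the ATP synthase, uses their return to make ATP. Mitochondrial DNA is read as long transcripts that are cut into single messages, whereas each nuclear member has a promoter of its own; naive T cells rely on this pathway and raise glycolysis once activated.

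Cells of 2 KO mice (KO1, KO2) and 3 WT mice (WT1, WT2, WT3) were assigned to a mouse and organ, which gave 10 libraries of 203 to 2151 cells and 819104 to 9202022 unique molecular identifiers (UMIs, 1 per captured transcript molecule, with no scaling by length). The 12886 cells (4804 from kidney, 8082 from spleen) had a median of 3178 to 3644 UMIs in each library. Levels are given as CPM, the UMIs of a gene scaled to a common library size. Ezh2 itself stood at 59.0 to 76.7 CPM in KO kidney against 95.8 to 162 CPM in WT kidney. In spleen it stood at 51.2 to 53.7 CPM in KO against 72.0 to 168 CPM in WT, without overlap in either organ. Among all tested genes, 23.2% in kidney and 20.4% in spleen likewise had every KO mouse below every WT mouse. WT1, at 95.8 CPM in kidney and 72.0 CPM in spleen, lay nearer to the KO mice than to WT2 and WT3. Left out as other cell types, by their markers, were 3 clusters. The largest, of 388 cells (51 KO and 337 WT), had 3 CD8 and NK markers among its leading genes and a median of 0.964% mitochondrial UMIs. Another, of 51 cells, was named as myeloid. The last, of 19 cells, was named as kidney tubule, a cell type rich in mitochondria. After this removal the kidney tubule markers summed to between 1.83 and 6.80 CPM in all 10 libraries, and Aqp1 and Aqp2 were at 0. Because the removal used these markers, their low sums are no independent measure of purity. The libraries differed in their mixture of T cells: cytotoxic-like cells made up 1.30% and 3.71% of spleen cells in KO1 and KO2, against 6.04%, 67.8% and 52.2% in WT1, WT2 and WT3, and naive-like cells made up 53.2% and 37.4% against 2.56%, 2.39% and 0.983%. In sums over such mixtures, a shift of cell types and a change within cells of 1 type cannot be told apart. The deposited tag key was read for mouse number, genotype, organ and day, and no further description of single animals was used. The p-values measure the spread between these libraries.

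Of the 94 nuclear members, 86 had enough counts to be tested in every comparison, and so did all 13 mitochondrial members. The 8 untested ones were alternative isoforms known from other tissues: Cox4i2, Cox6a2, Cox6b2, Cox7a1, Cox7b2, Cox8b, Cox8c and Ndufa4l2. Each had between 0 and 52 UMIs over all cells before any were filtered out. Promoters of a ubiquitous and a muscle isoform of complex IV, picked by hand from different subunits, serve as examples. They are given here from RefSeq for GRCm38.p6 as the 250 bases before and 50 bases after the transcript start. Capitals mark matches, on either strand, to GCGCA followed after any 1 base by GCGC, the core of the site of nuclear respiratory factor 1, or to CCGGAAG, a core of sites for ETS factors such as GABP, both known regulators of respiratory genes. Cox6a1, the form used in most tissues, holds 2 matches to the first, starting 162 and 117 bases before the start, and 1 match to the second, 16 bases before it (chr5:115348909-115349208, minus strand). Cox7a1, the heart and skeletal muscle form of another subunit, holds neither (chr7:30183921-30184220, plus strand).
Cox6a1: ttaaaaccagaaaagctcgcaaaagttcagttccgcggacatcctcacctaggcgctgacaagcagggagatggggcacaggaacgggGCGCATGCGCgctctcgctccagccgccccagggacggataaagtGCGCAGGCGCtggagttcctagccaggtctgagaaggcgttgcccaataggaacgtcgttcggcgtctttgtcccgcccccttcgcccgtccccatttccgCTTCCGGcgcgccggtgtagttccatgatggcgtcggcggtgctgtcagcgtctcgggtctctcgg
Cox7a1: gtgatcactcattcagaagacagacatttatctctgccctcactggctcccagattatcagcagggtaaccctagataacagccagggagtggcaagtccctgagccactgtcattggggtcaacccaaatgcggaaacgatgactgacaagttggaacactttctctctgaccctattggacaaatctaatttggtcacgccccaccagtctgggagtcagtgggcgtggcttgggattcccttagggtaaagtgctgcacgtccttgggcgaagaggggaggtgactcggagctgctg
The nuclear members with the largest fall and the largest rise in kidney relative to spleen, Ndufaf3 (chr9:108567387-108567686, minus strand) and Atp5md (chr19:47090598-47090897, minus strand), are shown for comparison.
Ndufaf3: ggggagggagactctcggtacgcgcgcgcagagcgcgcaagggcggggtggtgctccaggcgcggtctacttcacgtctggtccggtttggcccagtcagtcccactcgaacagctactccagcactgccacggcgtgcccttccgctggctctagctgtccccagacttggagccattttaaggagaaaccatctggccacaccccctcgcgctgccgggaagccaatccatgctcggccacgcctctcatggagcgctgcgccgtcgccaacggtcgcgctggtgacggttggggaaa
Atp5md: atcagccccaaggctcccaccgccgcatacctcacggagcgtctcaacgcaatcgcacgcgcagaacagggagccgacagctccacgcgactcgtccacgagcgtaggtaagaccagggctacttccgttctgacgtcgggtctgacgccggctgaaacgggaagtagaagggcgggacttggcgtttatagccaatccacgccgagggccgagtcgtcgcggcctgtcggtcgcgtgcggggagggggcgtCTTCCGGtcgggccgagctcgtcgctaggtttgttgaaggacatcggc
Neither holds the first motif, and Atp5md holds 1 match to the second, beginning 2 bases after the start.

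Promoters were found for 77 of the 94 nuclear members. The first motif was in 18 of them (23.4%), against 4.78% of 27025 promoters of the same length, and the second in 18 of them (23.4%), against 9.12%. Among the 73 tested members with a promoter, each motif was in 18 (24.7%), so most tested members lacked it, as Cox7a1 did. Only 4 untested members had a promoter, and neither motif was found in those. The members' promoters had a median GC content of 58.7%, against 52.7% in all promoters, and the share of matches that this difference in base content gives was not computed. The matched members are spread over the genome: the 94 nuclear members lie on 19 chromosomes, at most 9 of them on 1 chromosome. All of the mitochondrial members except mt-Nd6 are read from the same strand. Neighbours there overlap, by 43 bases between mt-Atp8 and mt-Atp6, by 7 bases between mt-Nd4l and mt-Nd4, and by 14 bases between mt-Nd5 and mt-Nd6, so reads in those stretches could be counted for either gene.

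In terms of level, the mitochondrial members held between 0.926% and 1.51% of all UMIs in a library and the 94 nuclear members between 1.42% and 1.72%. Among mitochondrial members, mean CPM over the 10 libraries spanned 51.6 for mt-Nd6, the complex I subunit on the opposite strand, to 2360 for mt-Co1, the catalytic subunit of complex IV; both are UMI counts and not per length. Tested nuclear members spanned 7.30 CPM for the assembly factor Ndufaf6 to 721 CPM for Cox4i1, the common form of complex IV subunit 4. The 8 complex I assembly factors reached at most 46.1 CPM, the supernumerary subunits 34.9 to 347 CPM, and the 17 complex V members 76.0 to 562 CPM.

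In every library the common isoforms of complex IV were above their tissue-specific counterparts. Cox4i1 had 752 and 758 CPM in KO kidneys and 672 to 781 CPM in WT kidneys, and 748 and 709 CPM in KO spleens and 646 to 710 CPM in WT spleens. Cox4i2, its counterpart known from lung, never exceeded 0.870 CPM. Likewise Cox6a1 lay between 179 and 241 CPM, while its muscle form Cox6a2 was at 0 in 6 of 10 libraries and at most 0.522 CPM. The testis form Cox6b2 reached 1.58 CPM beside 257 to 325 CPM for Cox6b1, and the muscle form Cox7a1 reached 0.872 CPM beside 202 to 256 CPM for Cox7a2. A single UMI of Cox8b was found and none of Cox8c, while Cox8a had 549 to 821 CPM. Ndufa4, now counted as a complex IV subunit, had 210 to 274 CPM and the hypoxia-induced Ndufa4l2 had no UMI. None of the 3 genes for the c-ring of ATP synthase was missing: Atp5g1 had 135 to 224 CPM, Atp5g2 457 to 620 CPM and Atp5g3 343 to 503 CPM. The low isoforms were not tested.

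The first comparison asked how Ezh2 deletion related to the members in kidney T cells. The summed share of the mitochondrial members was higher in both KO kidneys than in each WT kidney, and that of the nuclear members was not; gene by gene none of them was called and 6 of the 13 mitochondrial members overlapped between genotypes. The mitochondrial members held 1.33% and 1.28% of UMIs in KO1 and KO2, against 1.19%, 0.926% and 0.928% in WT1, WT2 and WT3. The means were 1.30% ± 0.0355 (SD, n = 2) in KO and 1.02% ± 0.154 (SD, n = 3) in WT kidneys. Both KO mice lay above all WT mice, and WT1 stood nearer to the KO mice than to the other WT mice. The kidney cell mixture followed the same order: cluster 0, led by Esm1 and with the lowest mitochondrial share of all clusters (0.879%), made up 3.94% and 7.88% of KO kidney cells, against 11.6%, 80.8% and 76.1% in WT1, WT2 and WT3. Cluster 2, led by Ifitm2 and Ramp3 (1.24%), made up 58.8% and 51.7% in KO, against 67.3%, 6.47% and 9.74% in WT kidneys. The part of this mixture in the summed share was not tested. Summed nuclear members held 1.45% and 1.42% in the KO kidneys, against 1.47%, 1.62% and 1.44% in the WT kidneys, and the groups overlapped. UMIs of mitochondrial members per UMI of nuclear members came to 0.916 and 0.902 in the KO kidneys, against 0.810, 0.573 and 0.645 in the WT kidneys, again without overlap.

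**Figure D1:**
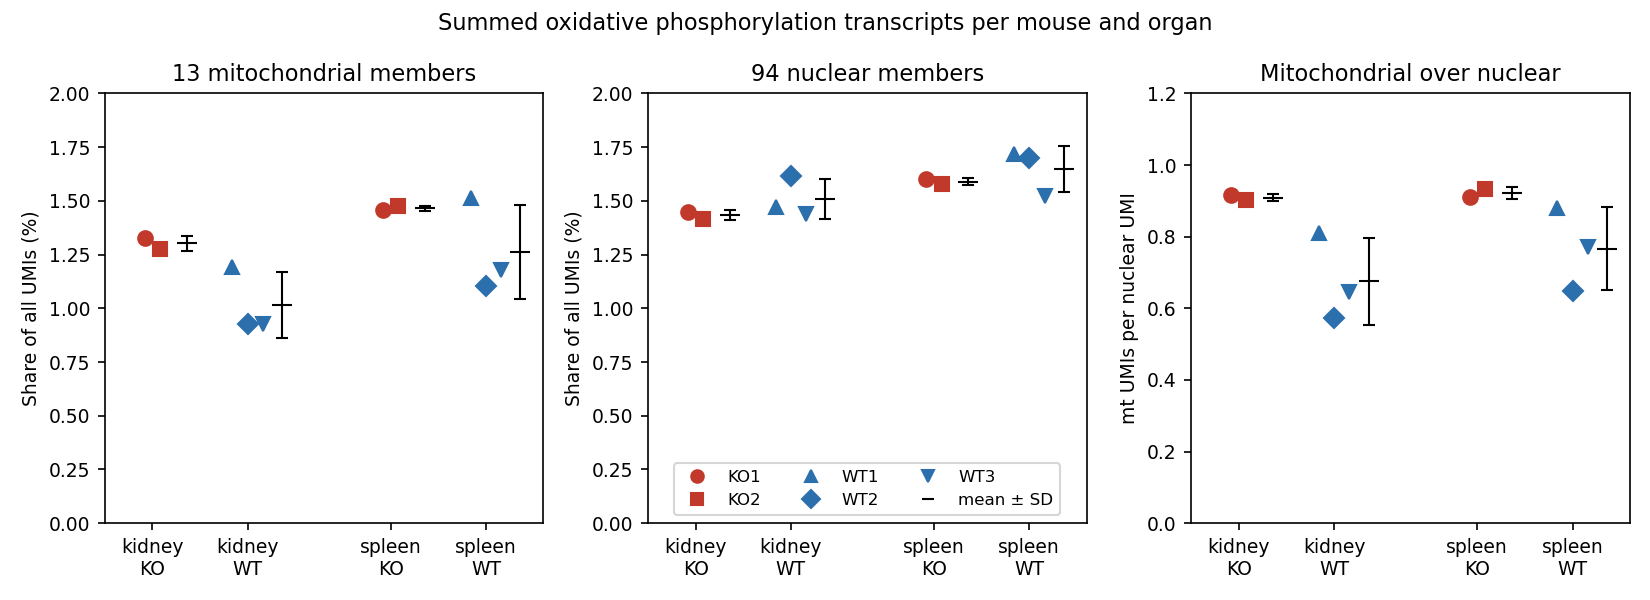
Summed UMIs of mitochondrial members (left) and nuclear members (middle) as a percentage of all UMIs, and their ratio (right), with 1 point per mouse and bars for mean ± SD, KO left of WT in each organ. In kidney both KO mice are above every WT mouse in the left and right panels, and WT1 lies closest to them; in spleen WT1, at 1.51%, is above both KO mice in the left panel.

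Gene by gene, the 13 mitochondrial members had a median log2 fold change of 0.43 in KO over WT kidneys, and all 13 fitted values were above 0. None of the 13 passed an adjusted p of 0.05 in edgeR's quasi-likelihood test, where 0% of 10236 genes passed. At an unadjusted p below 0.05 there were 6 of the 13, against 10.8% of all genes, and DESeq2, which called 0.791% of genes, called none of the 13. Without the filter on low counts 2 of the 13 were called, beside 2.94% of 18002 genes. The KO mice were above every WT mouse in 7 of the 13, where 11% of all genes did so. Among 93 tested cytosolic ribosomal protein genes, 18 did so, 87 had values above 0 and the median log2 fold change was 0.29. Apart from mt-Nd6 on the opposite strand, the mitochondrial members come from the same transcripts, and the 13 are not independent of each other.

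mt-Cytb (MT:14145-15288), the complex III subunit that carries both of its hemes b, had 1863 and 1729 CPM in the KO kidneys, against 1550, 994 and 963 CPM in the WT kidneys. Its log2 fold change was 0.71 ± 0.22 (SE; edgeR adjusted p = 0.393), the largest of the 13. The KO kidneys were high, WT2 and WT3 low and WT1 between them. mt-Nd4l, a membrane subunit of complex I, had 712 and 632 CPM in KO against 584, 385 and 422 CPM in WT kidneys (log2 fold change 0.63 ± 0.20). mt-Nd2 had 628 and 543 CPM in KO against 508, 391 and 402 CPM in WT kidneys (0.52 ± 0.16, adjusted p = 0.382), and mt-Nd5 had 356 and 319 CPM against 294, 241 and 236 CPM (0.48 ± 0.15). For each of these the groups were separate and WT1 was the highest of the WT mice. mt-Nd3 and mt-Nd1, also of complex I, had log2 fold changes of 0.59 and 0.48. The complex IV subunits had smaller values: mt-Co1 had 2532 and 2456 CPM in KO against 2535, 2078 and 1962 CPM in WT kidneys (0.28 ± 0.15), mt-Co2 had a log2 fold change of 0.28 and mt-Co3 of 0.39, and in all 3 the groups overlapped. For complex V, mt-Atp6 and mt-Atp8 had 0.43 and 0.34, for mt-Nd4 the value was 0.33 and for mt-Nd6 0.31.

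WT1 decided whether these differences were called. Without it, 12 of the 13 mitochondrial members were higher in KO kidneys at an adjusted p below 0.05, where 7.88% of 9978 genes were called higher, and mt-Nd6 was the exception. The nuclear Ndufs4 was then lower in KO kidneys (log2 fold change -0.57, adjusted p = 0.0270), where 4.82% of genes were called lower and 12.7% either way. mt-Cytb then had a log2 fold change of 0.96 (adjusted p = 0.000404) and mt-Co1 of 0.39 (adjusted p = 0.00928). Without any other single mouse, none was called. Summed cytotoxic markers in kidney came to 3281 and 3599 CPM in KO1 and KO2, against 7139, 23013 and 13312 CPM in WT1, WT2 and WT3, and the part of this in the result was not tested.

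The median log2 fold change of the nuclear members in kidney was 0.01, with 45 of 86 above 0 (29 of 86 with library totals, and 26 with clusters of other cell types kept). None was called or had an unadjusted p below 0.05, as 10.8% of all genes had. KO mice were above every WT mouse in 2 of 86, where 11% of all genes were, and below every WT mouse in 24 of 86, where 23.2% of all genes were. By role, medians were 0.09 for the 7 complex I core subunits, -0.01 for the 30 supernumerary subunits, -0.02 for the 8 assembly factors, 0.03 for complex II, 0.02 for complex III, -0.06 for complex IV and -0.02 for complex V. The smallest p among lower values belonged to Ndufs4, an accessory subunit needed for a stable complex I, with 88.1 and 80.3 CPM in KO against 97.6, 141 and 126 CPM in WT kidneys (-0.43 ± 0.18, adjusted p = 0.467). Atp5k, which encodes subunit e of ATP synthase, had 64.4 and 46.4 CPM in KO against 77.4, 74.96 and 74.5 CPM in WT kidneys (-0.33 ± 0.16). Ndufb1-ps, matched in RefSeq to the protein-coding gene Ndufb1, had 123 and 107 CPM against 143, 148 and 137 CPM (-0.22 ± 0.12). In all 3 the KO mice were below every WT mouse, and none was called. Complex II, the only complex with no mitochondrial subunit, had log2 fold changes of 0.04 for the flavoprotein Sdha, 0.01 for the iron-sulfur subunit Sdhb, -0.15 for Sdhc and 0.15 for Sdhd, the last 2 being its membrane anchors.

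**Figure D2:**
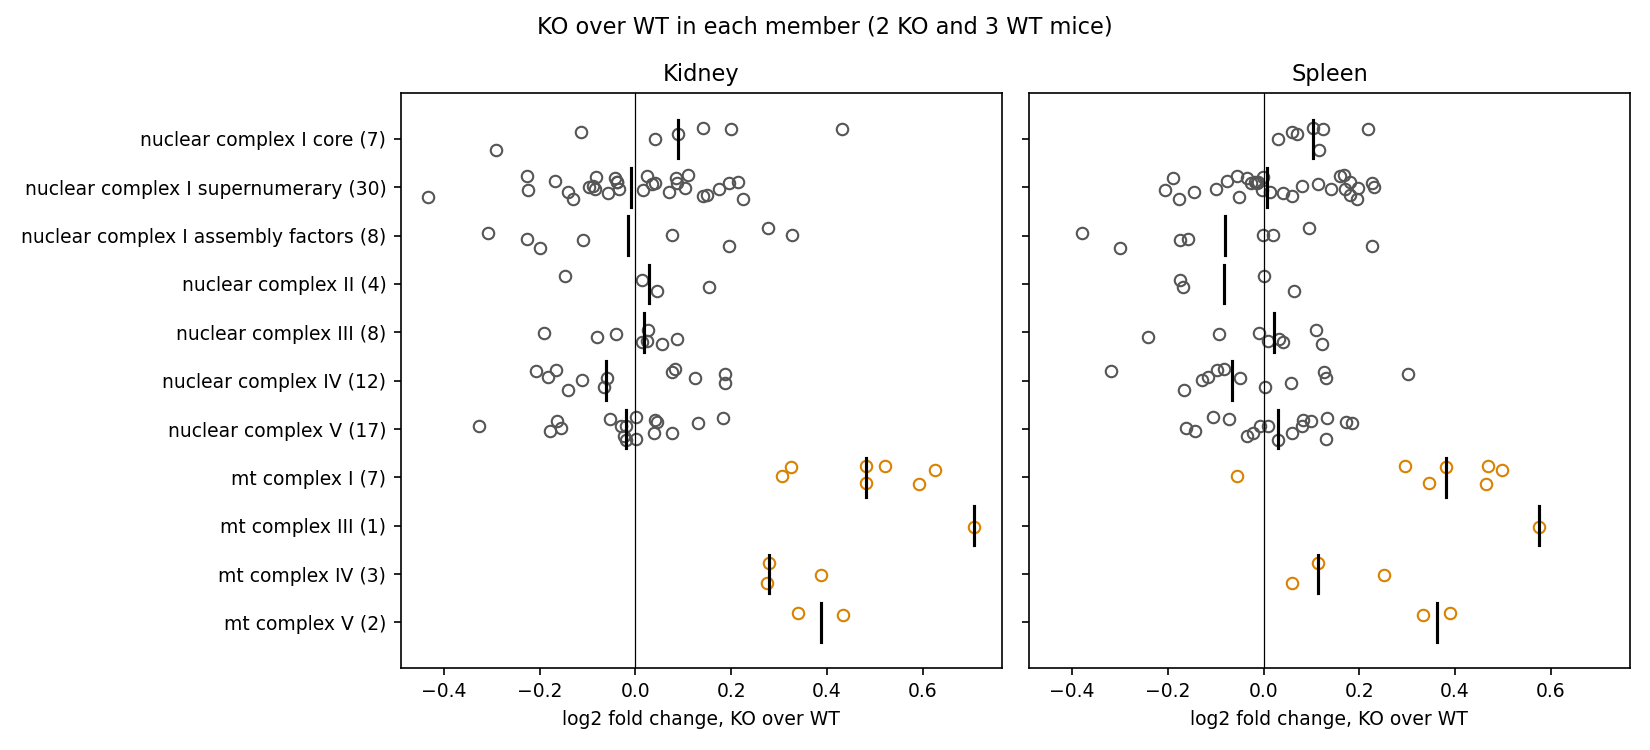
Fitted log2 fold change of KO over WT for each tested member in kidney (left) and spleen (right), 1 open circle per gene, in rows by complex and genome, with the number of tested genes in brackets and a black line at each row's median. Mitochondrial members (orange) lie right of 0 in both organs, apart from mt-Nd6 in spleen at -0.05, while nuclear members (gray) lie on both sides; no member was called in either organ.

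In the spleen the mitochondrial members had a median log2 fold change of 0.35 in KO over WT, and 12 of 13 were above 0. Their summed share was 1.46% and 1.47% of UMIs in KO1 and KO2, against 1.51%, 1.10% and 1.18% in WT1, WT2 and WT3. The means were 1.47% ± 0.0124 (SD, n = 2) in KO and 1.26% ± 0.218 (SD, n = 3) in WT spleens. Here WT1 was the highest of all, so the groups overlapped. Nuclear members held 1.60% and 1.58% in the KO spleens, against 1.72%, 1.70% and 1.52% in the WT spleens. The ratio of mitochondrial to nuclear UMIs was 0.910 and 0.935 in the KO spleens, against 0.881, 0.647 and 0.773 in the WT spleens, without overlap.

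None of the 13 mitochondrial members and none of the 86 nuclear members was called in spleen, where 24 genes, 0.205% of 11683, were called (0.18% higher and 0.0257% lower), and DESeq2, which called 5.25% of genes, called no member. At an unadjusted p below 0.05 there were 6 mitochondrial and 2 nuclear members, against 16% of all genes. KO mice were above every WT mouse in 8 of 13 mitochondrial members, where 17.3% of all genes did so. A rise in KO spleens was not particular to these members. Of 94 tested cytosolic ribosomal protein genes, 77 had every KO mouse above every WT mouse. In that list 71 had an unadjusted p below 0.05 and the median log2 fold change was 0.39, with none called. mt-Cytb had 2048 and 1959 CPM in KO spleens, against 1731, 1065 and 1313 CPM in WT spleens (0.57 ± 0.21, adjusted p = 0.258). mt-Nd4l had 744 and 739 CPM against 634, 431 and 538 CPM (0.50 ± 0.17, adjusted p = 0.243), and mt-Nd2 had 596 and 566 CPM against 501, 372 and 410 CPM (0.47 ± 0.15, adjusted p = 0.227). The KO spleens were above all WT spleens in these 3 genes. In contrast mt-Co1 had 2439 and 2443 CPM in KO against 2512, 2288 and 2351 CPM in WT spleens (0.06 ± 0.10), and when library totals replaced TMM scaling its value was -0.00. mt-Nd6 had 51.0 and 53.0 CPM in KO against 58.8, 55.4 and 50.7 CPM in WT spleens (-0.05 ± 0.13). Both of these genes overlapped between genotypes. Without WT1, 9 of the 13 were higher in KO spleens (11% of 11267 genes were called higher, 9.54% lower and 20.5% either way), all but mt-Co1, mt-Co2, mt-Co3 and mt-Nd6, and without any other mouse none was called.

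**Figure D3:**
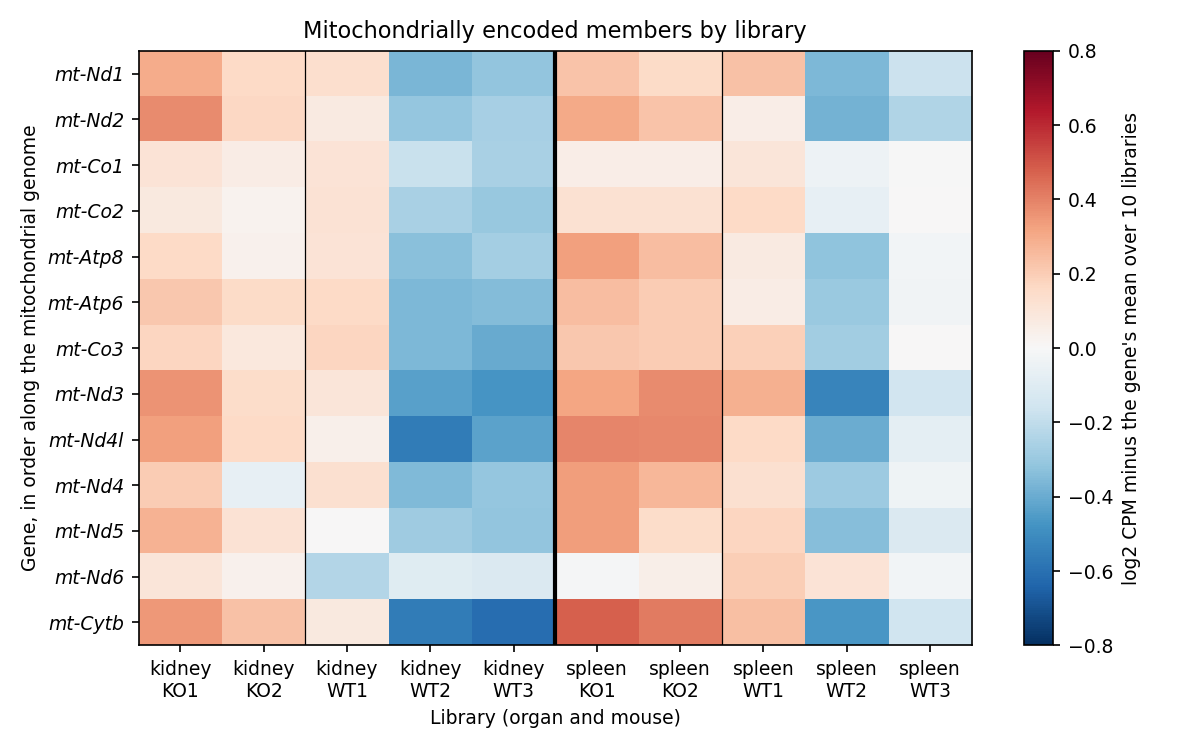
Each mitochondrial member (rows, in genome order) in each library (columns, kidney left and spleen right, KO left of WT), coloured by log2 CPM minus the gene's mean over the 10 libraries. WT2 and WT3 are below the mean in nearly all rows in kidney, KO1, KO2 and WT1 are above it in most.

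The mitochondrial messages did not move by equal amounts. As a share of the UMIs of the 13 genes, which does not depend on how libraries are scaled, mt-Cytb made up 13.3% and 13.2% in KO kidneys against 11.7%, 10.3% and 10.1% in WT kidneys, and 14.3% and 14.0% in KO spleens against 12.8%, 10.3% and 11.1% in WT spleens. mt-Co1 went the other way, with 18.1% and 18.7% in KO against 19.2%, 21.5% and 20.7% in WT kidneys, and 17.0% and 17.4% in KO against 18.6%, 22.1% and 19.9% in WT spleens. mt-Nd4l was likewise separate in both organs, higher in KO, and mt-Co2 lower. These shares were read after the values were seen and carry no test.

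Nuclear members in the spleen had a median log2 fold change of 0.01, with 47 of 86 above 0 (31 with library totals). KO mice were above every WT mouse in 12 of 86 and below every WT mouse in 15 of 86, where 17.3% and 20.4% of all genes were. The smallest p belonged to Ndufaf3, an assembly factor that joins early complex I intermediates, with 23.5 and 26.7 CPM in KO against 31.6, 33.9 and 34.5 CPM in WT spleens (-0.38 ± 0.13, adjusted p = 0.243). Uqcrb, a small complex III subunit, had 126 and 137 CPM in KO against 151, 155 and 168 CPM in WT spleens (-0.24 ± 0.11), and Cox5a, a nuclear subunit of complex IV, had 210 and 203 CPM against 231, 309 and 246 CPM (-0.32 ± 0.16). In all 3 the KO spleens were the lowest. Cox7a2l, which helps complexes III and IV associate, had 260 and 250 CPM in KO against 203, 200 and 229 CPM in WT spleens (0.30 ± 0.11, adjusted p = 0.262). The 7 complex I core subunits all had values above 0, with a median of 0.10, and complex II had a median of -0.08.

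Whether the KO effect differed between organs was tested as an interaction. None of 99 members was called, and none of 11852 genes was (0% of all genes; 2.84% had an unadjusted p below 0.05, and no member did). The difference between kidney and spleen had one sign in both KO mice and the other in all 3 WT mice for 3 of the 99 members, where 4.01% of all genes did so. The median difference, kidney effect minus spleen effect, was 0.10 for the mitochondrial and -0.04 for the nuclear members. The smallest p values belonged to Ndufs1, the core subunit that holds several iron-sulfur clusters (-0.44 ± 0.22), Atp5k (-0.37 ± 0.19) and mt-Nd6 (0.33 ± 0.17). Other members of the naming rule were Ndufs4 at -0.41, Sdhd at 0.30 and Ndufab1, the mitochondrial acyl carrier protein, at 0.24.

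The third comparison set kidney against spleen in the 5 mice. Members of the same pathway moved both ways: after TMM scaling 14 of 86 nuclear members were called, 4 higher and 10 lower in kidney, and 8 of the 10 were complex I genes while 3 of the 4 belonged to ATP synthase. The 86 tested hold 7 core subunits, 30 supernumerary subunits and 8 assembly factors of complex I, beside 17 ATP synthase genes. Complex I was thus the largest group to begin with, and the split by complex was not tested. Among all 11852 genes 21.9% were called either way, a larger share than among the nuclear members, with 12.6% higher and 9.35% lower. None of the 13 mitochondrial members was called or had an unadjusted p below 0.05, as 36.5% of all genes had, and DESeq2 called none of them. DESeq2 called 18 nuclear members, 6 higher and 12 lower, and 22.9% of all genes. Without the filter on low counts 8 nuclear members were called (11.9% of all genes), in WT mice alone 2 (7.43%) and in KO mice alone 1 (12.7%). The count of 14 was 6 without KO1 (11% of all genes called), 5 without KO2 (11.9%), 9 without WT2 (14.9%), 8 without WT3 (13.3%) and 14 without WT1 (25.6%), so the share of all genes called fell in 4 of these 5 fits as well. The median log2 fold change was -0.05 for nuclear members, -0.10 for mitochondrial members and -0.05 for all genes. Kidney was above spleen in every mouse for 10 nuclear members (18.2% of all genes) and below it for 27 nuclear and 5 mitochondrial members (21.1% of all genes).

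Atp5md, Ndufaf3 and Ndufb3, described next, stayed below an adjusted p of 0.05 without each mouse in turn. Ndufaf1 was lost without WT3 (adjusted p = 0.0521), Atp5d without KO2 (0.0570) and Ndufc2 without KO1 (0.0623) or KO2 (0.0528). Sdhc was lost without KO1, KO2 or WT2 (0.0881 to 0.120), Uqcrfs1 without any mouse but WT2 (0.0505 to 0.103), Ndufaf7 without any but WT3 (0.0522 to 0.116) and Atp5b without any 1 of the 5 (0.0590 to 0.218).

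With the mouse as a block, since both organs came from the same animals, 24 nuclear members were called, 7 higher and 17 lower (34.5% of all genes, 18% higher and 16.5% lower). Scaling changed the split further. With library totals in place of TMM, 34 nuclear members were called, 1 higher (Atp5md) and 33 lower, and 1 mitochondrial member was lower. That scaling moved the median of all genes to -0.22, called 27.8% of genes, 7.8% higher and 20% lower, and put the nuclear median at -0.21 and the mitochondrial median at -0.28.

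Among complex I assembly factors, which are needed to build the complex but are not part of it, Ndufaf3 (9:108565587-108567436) had 15.4 and 12.5 CPM in KO kidneys and 19.2, 20.3 and 16.9 CPM in WT kidneys. Its spleen levels in the same mice were 23.5, 26.7, 31.6, 33.9 and 34.5 CPM, so kidney was lower in 5 of 5 mice. The log2 fold change was -0.79 ± 0.10 (adjusted p = 0.000358). Ndufaf1, a factor for the membrane arm, had 503 UMIs over all cells before any were filtered out. It averaged 6.54 ± 0.850 CPM in kidney and 10.4 ± 0.977 CPM in spleen (SD, n = 5 each, -0.68 ± 0.15, adjusted p = 0.0111). Ndufaf7, a methyltransferase that modifies a core subunit, averaged 10.2 ± 1.31 CPM in kidney and 14.8 ± 1.29 CPM in spleen (-0.50 ± 0.14, adjusted p = 0.0254). The other 5 complex I assembly factors were not called.

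Of the complex I subunits, Ndufc2 averaged 66.8 ± 6.48 CPM in kidney and 91.4 ± 8.97 CPM in spleen (-0.43 ± 0.10, adjusted p = 0.0125). Ndufb3 averaged 63.5 ± 6.51 CPM in kidney and 85.1 ± 5.13 CPM in spleen (-0.39 ± 0.08, adjusted p = 0.00876). Both are supernumerary subunits of the membrane arm and were lower in kidney in all 5 mice. The 3 called complex I members outside the naming rule, named after their values were seen, were Ndufs7, a core subunit of the arm that binds ubiquinone, and the supernumerary Ndufa5 and Ndufa12, with log2 fold changes of -0.29, -0.28 and -0.29. No complex I gene was called higher.

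In complex II, Sdhc (1:171129157-171150640) had 27.3 and 28.9 CPM in KO kidneys and 37.2, 31.7 and 29.2 CPM in WT kidneys, against 41.3, 40.1, 43.7, 44.2 and 36.1 CPM in the spleens of the same mice. Kidney was lower in each mouse (-0.38 ± 0.11, adjusted p = 0.0259). This gene overlaps Gm46172 by 2011 bases, and whether counting used strand is not given in the sources used here. Its partners did not pass, at -0.01 for Sdha, 0.00 for Sdhb and -0.14 for Sdhd.

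Complex III gave 1 call in each direction. Uqcrfs1, the Rieske iron-sulfur protein, had 153 and 156 CPM in KO kidneys and 162, 174 and 147 CPM in WT kidneys, against 139, 131, 123, 143 and 116 CPM in the spleens of the same mice (0.31 ± 0.08, adjusted p = 0.0243). It was higher in kidney in each mouse. Uqcr11, a small subunit outside the naming rule, had a log2 fold change of -0.37 and was lower in each mouse. No complex IV member was called, and 9 of its 12 tested members had values above 0 (median 0.10).

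ATP synthase held the largest rise. Atp5md (19:47083471-47090647), a small membrane subunit that helps ATP synthase form dimers, had 304 and 331 CPM in KO kidneys and 331, 386 and 333 CPM in WT kidneys, against 216, 203, 202, 246 and 225 CPM in the spleens of the same mice. The groups of libraries did not overlap, and the log2 fold change was 0.65 ± 0.08 (adjusted p = 0.000440). Atp5d, the delta subunit of the rotating stalk, averaged 382 ± 44.7 CPM in kidney and 300 ± 19.6 CPM in spleen (0.37 ± 0.09, adjusted p = 0.0136). Atp5b, the catalytic beta subunit, averaged 507 ± 30.3 CPM in kidney and 434 ± 30.1 CPM in spleen (0.25 ± 0.08, adjusted p = 0.0490). With library totals Atp5md had 0.48 and was called (adjusted p = 0.00278), whereas Atp5d had 0.20, Uqcrfs1 0.14 and Atp5b 0.08, none of them called. Atp5d overlaps Cbarp by 1658 bases. Complex V also held lower values, such as Atp5g1 at -0.30 ± 0.11 (adjusted p = 0.0760) and Atp5k at -0.29 ± 0.10 (adjusted p = 0.0649), which were not called.

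**Figure D4:**
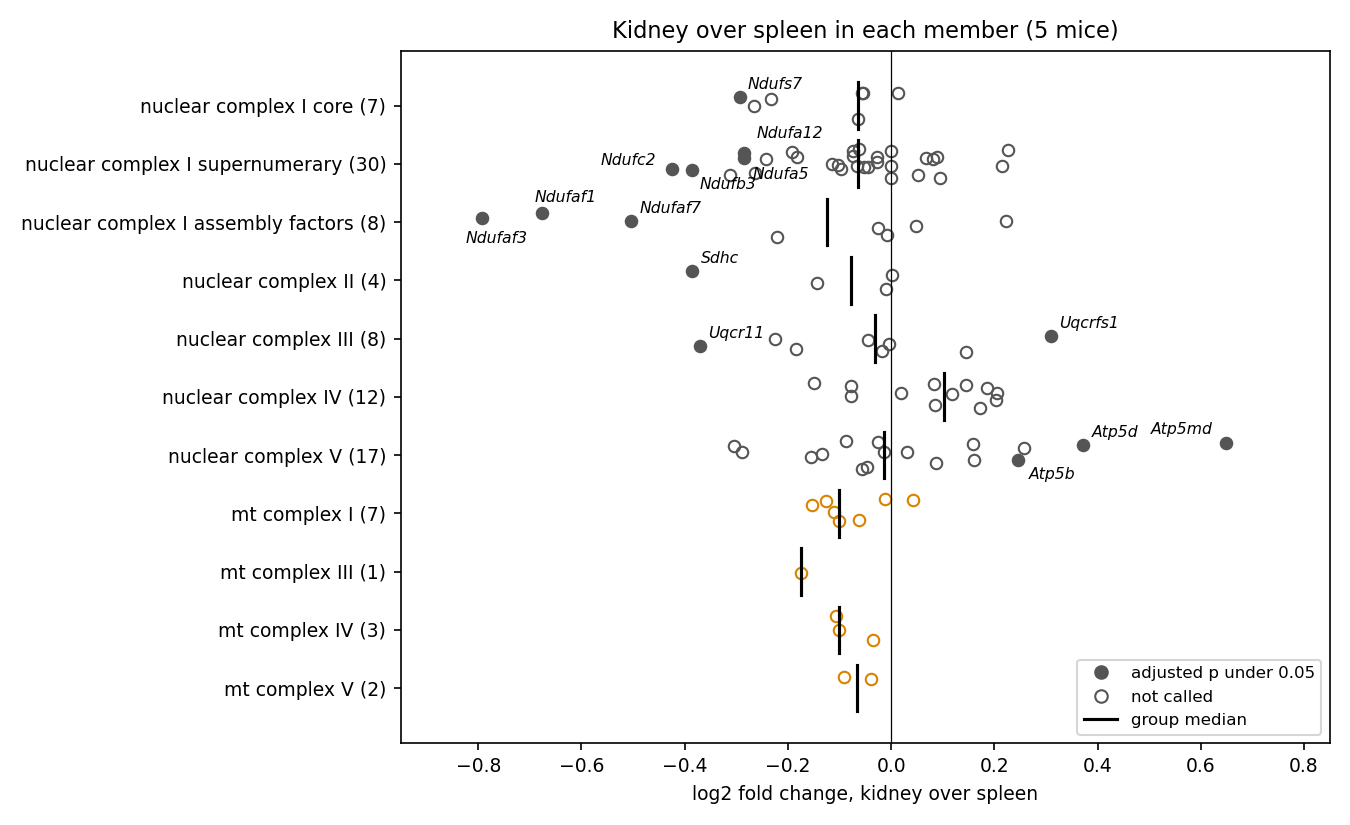
Fitted log2 fold change of kidney over spleen for each tested member, in rows by complex and genome, with filled circles for adjusted p under 0.05, open circles for genes not called and black lines for row medians. The 3 named assembly factors lie farthest left, down to -0.79 for Ndufaf3, and 3 ATP synthase genes lie farthest right with Uqcrfs1, up to 0.65 for Atp5md; the mitochondrial members (orange) lie between -0.17 and 0.04.

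As a share of all UMIs, both genomes' members were lower in kidney than in spleen in 5 of 5 mice, by a mean of 0.214 percentage points for the mitochondrial and 0.146 points for the nuclear members, on a scale where the median of all genes was lower in kidney too. Inside clusters the raw shares were read in the same way, and the change of all genes there was not computed. Cells were clustered without the members, and in 10 pairs of a cluster and mouse with at least 30 cells in each organ, drawn from 7 clusters, the mitochondrial share was lower in kidney in 10 of 10, by 0.0476 to 0.309 points. These pairs came from 4 mice, 5 from WT1, 2 each from KO1 and WT2, 1 from WT3 and 0 from KO2, so they are not 10 independent comparisons. Follicular helper-like cells of KO1, for example, had 1.87% in kidney and 2.13% in spleen, and those of WT1 had 1.54% in kidney and 1.76% in spleen. Nuclear members were lower in kidney in 5 of the 10 pairs, with differences between -0.436 and 0.181 points.

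Over 14 clusters the mitochondrial share ran between 0.879% in cluster 0, a kidney cluster led by Esm1, and 2.05% in cluster 10, and the nuclear share between 0.387% in cluster 10 and 2.25% in the cycling-like cells. Follicular helper-like cells had 1.85% mitochondrial and 1.76% nuclear, regulatory T-like cells 1.39% and 1.65%, and the larger naive-like cluster 1.31% and 1.52%. Cytotoxic-like cells had 0.988% mitochondrial and 1.59% nuclear. The cycling-like cells combined the highest nuclear share with 1.05% mitochondrial, and they had a median of 13093 UMIs per cell. Cluster 10, led by the long noncoding RNA Lncpint, had a median of 1861 UMIs, only 2.92% ribosomal protein UMIs and 297 cells. Over the 12 clusters with at least 100 cells, Spearman's rho between the mitochondrial and the nuclear share was 0.03 and Pearson's r was -0.52, as a description of clusters that share libraries.

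**Figure D5:**
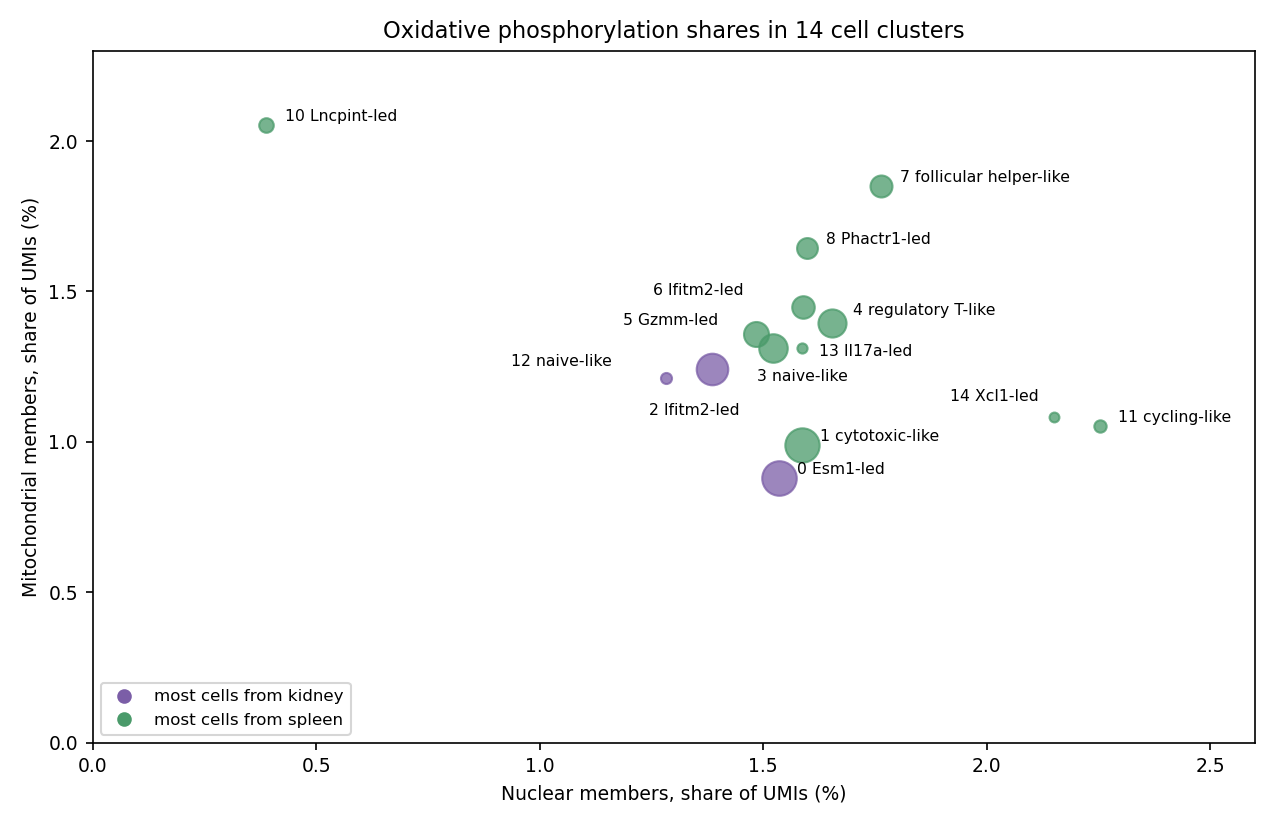
Nuclear members' share of UMIs (horizontal) against mitochondrial members' share (vertical) in each of 14 clusters, with point area growing with the number of cells and colour giving the organ of most cells. Cluster 10 stands apart at the upper left (0.387% and 2.05%), follicular helper-like cells are highest among the rest, and cytotoxic-like cells and the Esm1-led kidney cluster lie below 1% on the vertical axis.

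Genotypes were also compared inside clusters, among cluster and organ pairs with at least 30 cells of at least 1 KO and 1 WT mouse. The mean mitochondrial share was higher in KO in 9 of 11 such pairs, and every KO mouse was above every WT mouse in 7 of them. Regulatory T-like and follicular helper-like kidney cells are among the 7 and hold 1 KO and 1 WT mouse, which cannot overlap. The pairs also share mice, and the same count over all genes was not computed. Follicular helper-like spleen cells had 2.13% and 2.21% in the KO mice against 1.76% in WT1, and regulatory T-like spleen cells 1.45% and 1.54% in the KO mice against 1.31% and 1.36% in 2 WT mice. In naive-like spleen cells the values were 1.31% and 1.33% in the KO mice against 1.33% in 1 WT mouse. A single pair held all 5 mice, the kidney cluster 2 led by Ifitm2 and Ramp3, where KO averaged 1.31% and WT 1.19%. The log2 ratio there was 0.14, and most other pairs rest on 1 mouse of a genotype.

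With naive-like and cycling-like cells left out, the summed mitochondrial share in spleen was 1.63% and 1.58% in KO1 and KO2, against 1.54%, 1.13% and 1.18% in WT1, WT2 and WT3, and both KO mice were then above all WT mice. In kidney it was 1.37% and 1.28% against 1.21%, 0.928% and 0.929%. Cytosolic ribosomal protein genes, measured beside the members, held, in the full set of cells, 26.4% and 25.8% of UMIs in KO against 25.2%, 20.6% and 20.7% in WT kidneys, and 28.3% and 26.6% against 22.3%, 20.4% and 21.4% in the spleens. Without naive-like and cycling-like cells they held 25.6% and 24.3% against 25.3%, 21.1% and 20.7% in the kidneys, and 22.2% and 21.5% against 22.0%, 20.2% and 21.3% in the spleens, and KO and WT then overlapped in both organs. Their part in the members' result was not tested.

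Neighbouring pathways were read from lists chosen with results of these data known. Between KO and WT none of their genes was called in either organ or in the interaction. In the mitochondrial transcription and replication list, Tfb2m, a factor for transcript initiation, had 27.3 and 30.4 CPM in KO spleens against 19.9, 17.9 and 18.6 CPM in WT spleens (0.64 ± 0.13, adjusted p = 0.125), and Tfam, the packaging factor of mitochondrial DNA, had the smallest p in kidney (0.39 ± 0.19, adjusted p = 0.520). Idh2, the mitochondrial NADP isocitrate dehydrogenase, had 44.1 and 37.9 CPM in KO against 18.2, 8.02 and 9.26 CPM in WT spleens (1.79 ± 0.35, adjusted p = 0.117). The uncoupling protein gene Ucp2 had 831 and 863 CPM in KO against 1126, 1354 and 1259 CPM in WT spleens (-0.53 ± 0.12, adjusted p = 0.136). Gapdh of glycolysis had -0.54 ± 0.11 (adjusted p = 0.128). In each of these 4 spleen genes the KO and WT mice were separate. Among all genes, 17.3% had every KO spleen above every WT spleen and 20.4% below. The 4 were picked for the smallest p of their lists in this comparison, so their separation is no further evidence.

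Between kidney and spleen the same lists held calls, to be read against the 12.6% of all genes called higher and 9.35% called lower. Of 78 mitochondrial ribosomal protein genes 21 were lower and none higher in kidney (median -0.23), with Mrpl18 at -0.71 ± 0.11. Of 39 tested assembly factors of the whole pathway 9 were lower and 3 higher (median -0.31), led by Uqcc3 of complex III at -0.76 ± 0.10 (adjusted p = 0.000463); the list leaves out the Ndufaf members above. Mitochondrial transcription genes gave 4 lower and 1 higher of 18, with Tefm, an elongation factor, at -1.68 ± 0.31. Glycolysis genes gave 4 higher and 1 lower of 18, led by the glucose transporter gene Slc2a1 at 0.84 ± 0.12, and the phosphate carrier gene Slc25a3 was at 0.80 ± 0.09. Sirt1 led the biogenesis regulators (1.16 ± 0.12), of which 4 of 13 were higher and 2 lower, and the tricarboxylic acid cycle genes gave 1 of each of 19.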

How the data were processed

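The authors deposited whole-number UMI counts per gene and cell barcode for kidney and spleen, with antibody tag counts beside them. The build mm10 (GRCm38) and the tools Cell Ranger 7.1.0 and Seurat 5.0.1 are those listed in the submitters' processing notes. Of 18 barcode blocks, the 10 with first-day tags were used. They were joined to mice through the deposited tag key, by the tag leading each block (in at least 99.5% of its cells). The 8 second-day blocks (17523 entries) were left out because they appeared to repeat the same cells, which was not tested. The key names 9 mice (4 KO and 5 WT) over both days, and only the 2 KO and 3 WT mice of the first day were used. Cells with fewer than 200 genes or over 10% mitochondrial UMIs, cells led by another tag and 3 clusters of other cell types were left out.

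Clusters came from igraph 0.11.9 (Leiden, 2000 variable genes, 30 principal components, 15 neighbours, resolution 1), without the members, list genes and markers; names rest on marker rules set after the counts were seen, no doublet caller was run, and doublets were treated only by the tag and cluster filters. Counts were summed per mouse and organ and tested in edgeR 4.0.16 (R 4.3.3) by the quasi-likelihood test, with TMM scaling, the filterByExpr filter (minimum count 10) and Benjamini-Hochberg adjustment over all genes tested at 0.05; printed CPM use TMM-scaled library sizes, shares are of raw totals, and ± beside a log2 fold change is its SE. Adjusted p-values in the text come from this test unless another tool is named. DESeq2 1.42.0, no TMM, no filter, other cell sets, a mouse block and each mouse left out were alternatives. Kidney and spleen samples of 1 number come from the same animal; their deviations from group means correlated at 0.698, 0.622 and 0.388 for WT1, WT2 and WT3 and at -0.00 for the KO pair. Named genes were the 13 mitochondrial members, the 4 Sdh genes, the 5 largest called rises and falls per comparison (with no call among members, the 3 with the smallest p in each direction), the most abundant member of each complex, the isoform sets and, per list, the gene with the smallest p. Ndufs7, Ndufa5, Ndufa12, Uqcr11 and Ndufaf6 were chosen after their values were seen. The procedure was run on simulated counts, drawn without an effect shared by the organs of a mouse. The planted changes were larger than the members' log2 fold changes given here. That run therefore does not show how well changes of this size are recovered. Members and lists were chosen with earlier results of these data known.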

Additional observations from a re-analysis of the deposited data

Results flagged for a closer look

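For 2 named members the difference between kidney and spleen had one sign in every KO mouse and the other in every WT mouse. This was so for 3 of the 99 members, 1 of them outside the naming rule, and for 4.01% of all 11852 genes. For mt-Nd1 the log2 difference, kidney minus spleen, was 0.07 and 0.01 in KO1 and KO2, against -0.10, -0.01 and -0.15 in WT1, WT2 and WT3, and the mean difference between genotypes was 0.12. For Cox7a2, the common form of complex IV subunit 7a, it was -0.02 and -0.02 in the KO mice, against 0.13, 0.11 and 0.11 in the WT mice, and the mean difference was -0.14. Neither passed the interaction test in edgeR's quasi-likelihood fit: mt-Nd1 had 0.16 ± 0.28 (SE) and Cox7a2 -0.10 ± 0.16 (SE), with adjusted p = 1.00 for both.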

How the results depend on the processing

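Leaving out 1 mouse at a time, the number of mitochondrial members called between KO and WT ran between 0 and 12 in kidney and between 0 and 9 in spleen, the nuclear number between 0 and 1 in kidney, and the nuclear number between kidney and spleen between 5 and 14. Without the low-count filter 2 mitochondrial members were called between KO and WT in kidney, and 8 nuclear members between kidney and spleen. With library totals in place of TMM the kidney and spleen comparison gave 34 nuclear calls (1 higher, 33 lower) and 1 mitochondrial call, with medians of -0.21 and -0.28, and mt-Co1 between KO and WT spleens turned to -0.00 on the log2 scale (-0.0042). With the replicate block (the mouse, paired over organs) 24 nuclear members were called. In WT mice alone 2 nuclear members were called between organs and in KO mice alone 1, with a mitochondrial median of -0.0213; these fits hold fewer samples. With clusters of other cell types kept, the mitochondrial median of the interaction was -0.0136. Except where given here, causes were not tested. No other count of called members moved by over 1.5 times. Counts of nuclear members above 0 moved further, as the kidney and spleen values in the report show. The 2 KO mice, the 203 cells of the KO2 kidney and the unequal cell mixtures limit every genotype comparison. Counting error is largest for the assembly factors, with 400 UMIs for Ndufaf6 over all cells before any were filtered out.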
